A study of Mus musculus with 9 samples.

Results

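A set of 10 genes of the major histocompatibility complex (MHC) class I pathway were followed in RNA-Seq data from mouse embryonic fibroblasts (MEFs) of 3 genotypes. They were taken by gene symbol, with no threshold on a measured value but with earlier results of these data known, and all 10 of them were found among the 24341 genes listed for every sample. H2-K1 and H2-D1 encode class I heavy chains, B2m the light chain, Tap1, Tap2 and Tapbp the peptide transporter and its bridge to the heavy chain, Psmb8, Psmb9 and Psmb10 the catalytic subunits of the immunoproteasome, and Nlrc5 a transactivator of class I genes. The comparison asks how the RNA levels of these genes differ between WT, Atm-/- and Sirt6-/- MEFs, with 3 samples of each.

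MHC class I molecules show peptides from inside the cell to CD8+ T cells. Peptides are cut by the proteasome, moved into the endoplasmic reticulum by the Tap1/Tap2 transporter, and loaded onto a heavy chain paired with beta-2-microglobulin, with tapasin (Tapbp) and other chaperones holding the empty molecule ready. Most nucleated cells express class I, and interferons raise the whole pathway through factors that include IRF1 and NLRC5. Interferon also brings in the immunoproteasome, in which Psmb8, Psmb9 and Psmb10 take the places of the constitutive subunits Psmb5, Psmb6 and Psmb7.

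All 9 samples carry the strain label C57BL/6 and were grown in DMEM with 10% FBS, and the labels name no agent. Atm encodes a kinase of the DNA damage response and Sirt6 a nuclear deacylase. The treatment label of every sample names wildtype, Sirt6-/-, P53-/- and Atm-/-P53-/- mice as sources of MEFs without tying them to samples, and the methods of the study list immortalized Atm-/-; p53-/- and Sirt6-/- MEFs received from separate laboratories. Neither states whether the Atm-/- samples also lacked p53, nor whether the 3 samples of a genotype came from separate embryos or cultures, so that p-values measure the spread between these samples, which may be technical. Genotype, line of origin and, for Atm-/-, p53 status cannot be told apart. Mouse strains and lines can also carry different H2 alleles. Reads were counted per gene, so that alleles are not visible, and a read that matches the reference allele less well could be lost from or moved between the near-identical class I genes.

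Each sample held 32187040 to 33837949 counted reads, so that 3 reads corresponded to 0.0887 to 0.0932 CPM, the read count scaled to library size. Sirt6 had 4, 5 and 7 reads in Sirt6-/- samples 1 to 3, against 487, 402 and 472 in WT. For Atm the 3 samples labelled Atm-/- held 3768, 3564 and 3443 reads, more than the 1536 to 1627 reads of WT. Counts over a whole gene do not show where in the gene the reads lie, so the Atm label was not checked by this value, and Atm-/- stands below for the samples labelled so. Trp53, which encodes p53 and was added after its values were seen, had 806, 946 and 928 reads in Atm-/- against 6563 to 7108 in WT and 9081 to 9218 in Sirt6-/-. The 11 fibroblast markers summed to 28139 to 31224 CPM in WT, 9112 to 9359 in Atm-/- and 20220 to 20568 in Sirt6-/-, but single markers differed in direction. In Atm-/- Thy1 was higher than in WT (87.3 against 24.4 CPM on average) and the other markers were lower. Among these, Lum was at 0 in Atm-/- and at 0.211 CPM on average in WT and 0.214 in Sirt6-/-. In Sirt6-/- Col1a2, Pdgfrb, Dcn and S100a4 were higher than in WT, Lum was near its WT level, and the other markers were lower. The 12 blood cell markers summed to between 21.1 and 27.4 CPM in all samples, but single markers moved in different directions. Of a pair picked after their values were seen, Csf1r, a receptor gene of macrophages, averaged 7.71 CPM in WT, 0.716 in Atm-/- and 2.12 in Sirt6-/-, and Cd14, a monocyte gene, averaged 5.97, 16.0 and 15.9 CPM. Ptprc, which encodes the pan-leukocyte antigen CD45, averaged 0.0774 to 0.142 CPM. The 6 epithelial markers summed to 20.7 to 25.4 CPM in WT, 43.9 to 48.5 in Atm-/- and 15.4 to 19.9 in Sirt6-/-. Most of the rise in Atm-/- was Krt18 (28.2 against 7.21 CPM on average). Cdh1 and Krt8 were also higher there, Epcam was near its WT level, and Krt5 and Krt14 were lower. The 6 endothelial markers summed to 3.11 to 5.15 CPM in WT, 9.80 to 12.5 in Atm-/- and 0.649 to 0.990 in Sirt6-/-. Kdr made up most of this sum in WT and Atm-/- (3.37 and 10.98 CPM on average, 0.222 in Sirt6-/-). In Atm-/- no other endothelial marker exceeded its WT mean, and in Sirt6-/- Cdh5 was higher (0.326 against 0.1903 CPM). The part of these differences in the results below was not tested. In bulk RNA, fewer cells of a type and less RNA per cell cannot be told apart.

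Promoter sequences of 8 of the 10 genes were matched in RefSeq (build GRCm38.p6, the reference of C57BL/6J). Tap2 and Nlrc5 had no entry. The 250 bases before an annotated start are shown for 4 genes on which the results below turn: the heavy chains H2-K1 and H2-D1, which rose together, the light chain gene B2m, and Tap1, which shares its upstream region with Psmb9. In Atm-/- the reads of Tap1 and Psmb9 went different ways, though Psmb9 was near the floor of detection and was not tested. Capitals mark the searched letters of the interferon-stimulated response element (ISRE) core, GAAANNGAAA, the gamma-activated site (GAS) core, TTCNNNGAA, and the CCAAT box, CCAAT, on either strand. The stretches are chr17:34000348-34000597 on the minus strand for H2-K1, chr17:35262844-35263093 on the plus strand for H2-D1, chr2:122147437-122147686 on the plus strand for B2m, and chr17:34187306-34187555 on the plus strand for Tap1. The table lists 2 starts for H2-K1, of which the first listed was used. Both lie inside the outer end of the gene as given below, so that the H2-K1 stretch falls within the listed gene, while the other 3 stretches abut theirs.
H2-K1: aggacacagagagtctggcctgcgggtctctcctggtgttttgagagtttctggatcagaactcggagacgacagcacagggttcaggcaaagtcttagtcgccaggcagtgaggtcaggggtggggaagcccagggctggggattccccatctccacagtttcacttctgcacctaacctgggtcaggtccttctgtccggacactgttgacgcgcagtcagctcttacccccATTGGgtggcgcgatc
H2-D1: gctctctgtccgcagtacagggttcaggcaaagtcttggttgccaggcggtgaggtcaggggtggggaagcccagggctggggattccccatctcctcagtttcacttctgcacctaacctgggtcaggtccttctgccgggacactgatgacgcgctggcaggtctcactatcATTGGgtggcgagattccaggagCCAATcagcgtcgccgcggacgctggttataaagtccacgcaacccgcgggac
B2m: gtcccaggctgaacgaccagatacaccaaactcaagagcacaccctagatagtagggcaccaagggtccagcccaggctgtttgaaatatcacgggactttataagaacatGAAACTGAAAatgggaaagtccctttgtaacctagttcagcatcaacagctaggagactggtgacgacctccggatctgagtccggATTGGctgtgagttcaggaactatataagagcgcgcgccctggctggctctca
Tap1: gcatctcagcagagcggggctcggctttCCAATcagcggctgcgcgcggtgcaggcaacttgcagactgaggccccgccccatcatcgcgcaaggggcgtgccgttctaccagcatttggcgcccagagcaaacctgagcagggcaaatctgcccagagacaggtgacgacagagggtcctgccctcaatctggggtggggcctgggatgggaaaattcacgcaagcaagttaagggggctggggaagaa

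The H2-K1 and H2-D1 stretches had an identical run of 47 bases, at -141 to -95 of H2-K1 and -201 to -155 of H2-D1. Both held a CCAAT box on the minus strand, at -16 to -12 in H2-K1 and -76 to -72 in H2-D1, and H2-D1 a further match on the plus strand at -53 to -49. The run and the shared box both lie nearer to the start used for H2-K1. A counterpart of the further match would thus fall past that start, outside the bases searched. A CCAAT match was present in 33.8% of the 32851 stretches of 250 bases before a start in the table. B2m held an ISRE core at -139 to -130, a match found in 2.98% of these stretches. Psmb8 held a GAS core at -97 to -89, found in 7.02%. GGGAAT or GGGACT, with which many NF-kB sites begin, was present in 25.4% and in those of H2-K1, H2-D1, B2m and Psmb10. The starts of Tap1 and Psmb9 lie 226 bases apart and point away from each other, so that their table entries of 300 bases, from 250 before to 50 after the start, share 275 bases. These are exact matches of letters and were not measured as binding. Variants of an element were not searched, so that a stretch without a match may still hold one.

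The class I heavy chain genes H2-K1 and H2-D1 were higher in both mutants than in WT and highest in Sirt6-/-. H2-K1 (gene ID 14972, chromosome 17, 33996012 to 34000619, mm10) had 556, 481 and 613 reads in WT samples 1 to 3. In Atm-/- the values were 1064, 1293 and 1215 reads, and in Sirt6-/- 1656, 1726 and 1916 reads. The 3 genotypes did not overlap. The log2 fold change against WT was 0.98 (SE 0.10, edgeR adjusted p = 6.96e-07) in Atm-/- and 1.63 (SE 0.09, edgeR adjusted p = 3.26e-10) in Sirt6-/-, and Sirt6-/- exceeded Atm-/- by 0.64. Both comparisons share the WT samples.

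H2-D1 (gene ID 14964, chromosome 17, 35263094 to 35267497) had the same order of genotypes. It had 1576, 1365 and 1405 reads in WT, 2445, 2667 and 2450 in Atm-/- and 2915, 2646 and 2981 in Sirt6-/-. Its log2 fold change was 0.66 (SE 0.06, edgeR adjusted p = 3.81e-07) in Atm-/- and 0.92 (SE 0.07, edgeR adjusted p = 6.84e-09) in Sirt6-/-. Raw reads of Sirt6-/- sample 2 lay within the Atm-/- range, but in the fit Sirt6-/- was higher by 0.24 on the log2 scale. Against these 2 rises stands a wide background, in that 68.4% of the 13283 genes tested differed between Atm-/- and WT, 34.7% higher and 33.6% lower. Between Sirt6-/- and WT it was 76.6% of 13206 genes, 39.2% higher and 37.4% lower, and between Sirt6-/- and Atm-/- 75.8% of 13460 genes, 37.8% higher and 38% lower in Sirt6-/-.

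The light chain gene B2m (gene ID 12010, chromosome 2, 122147687 to 122153082) moved far less. WT samples had 9661, 8957 and 8461 reads, Atm-/- samples 9643, 10701 and 9993, and Sirt6-/- samples 10456, 11445 and 11902. The WT and Atm-/- ranges overlapped, and the log2 fold change of 0.03 was not significant (edgeR adjusted p = 0.665). When libraries were scaled by their read totals alone, B2m passed the test in Atm-/- as well, with a log2 fold change of 0.19 (edgeR adjusted p = 0.00426). That scaling moved the median of all genes by 0.16 and the share of higher calls among all calls from 50.8% to 64.9%. In Sirt6-/- B2m rose by 0.27 (SE 0.06, edgeR adjusted p = 0.000523). The gene overlaps Patl2 and the strand of counting is not stated.

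Per length, B2m RNA exceeded that of the heavy chains in every sample. The deposited length- and depth-scaled read values (RPKM) of B2m averaged 314 ± 18.3 (SD, n = 3) in WT, 358 ± 16.8 in Atm-/- and 401 ± 21.4 in Sirt6-/-. RPKM use read totals only and so carry the shift described above in Atm-/-. They carry a smaller one in Sirt6-/-. There read totals moved the median of all genes against WT by 0.09 and the share of higher calls from 51.2% to 57.3%. The RPKM of H2-K1 and H2-D1 added together were 11.06%, 10.33% and 11.98% of that of B2m in WT samples 1 to 3, a measure chosen after the values were seen. They were 18.28%, 18.62% and 18.46% in Atm-/- and 22.03%, 19.29% and 20.77% in Sirt6-/-. Each mutant sample lay above all WT samples on this ratio within a sample, which does not depend on the scaling of libraries.

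**Figure D1:**
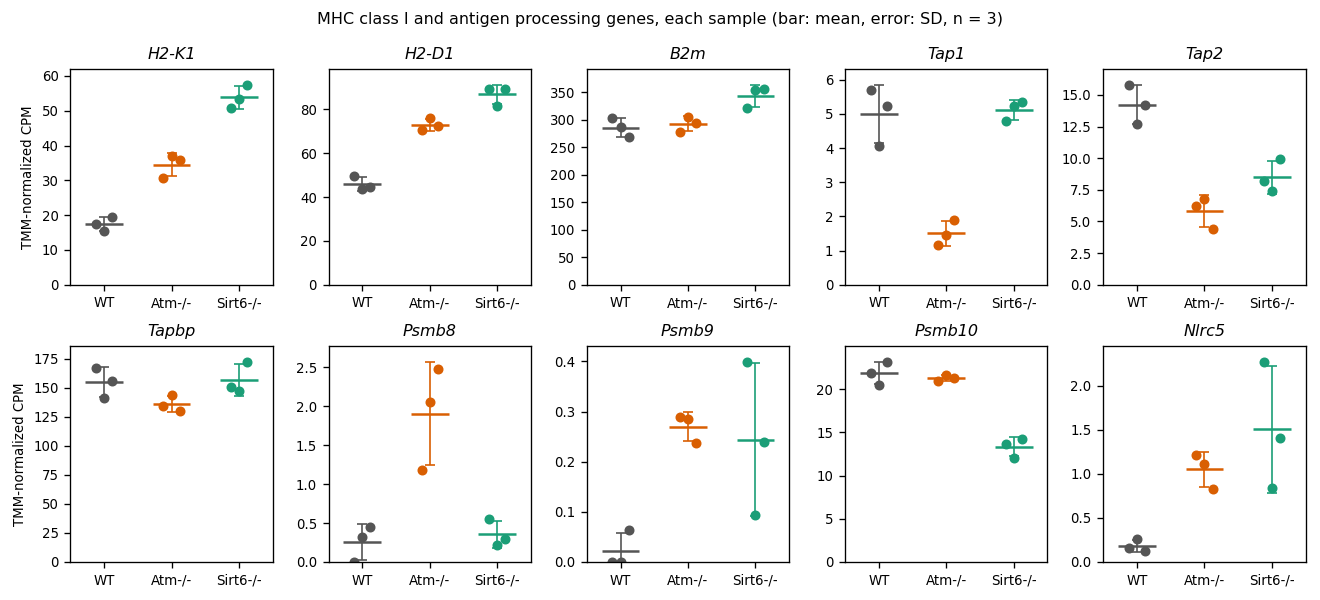
Normalised CPM (TMM scale over all 9 samples, y axis from 0) of the 10 genes in each sample by genotype on the x axis, with the mean as a bar and the SD as an error line (n = 3). H2-K1 and H2-D1 step up from WT to Atm-/- to Sirt6-/-, Tap1 is low in Atm-/- alone (40 to 64 reads against 127 to 182 in the other genotypes), and Psmb10 is low in Sirt6-/- alone.

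The peptide transporter genes did not follow the heavy chains. Tap1 (gene ID 21354, chromosome 17, 34187556 to 34197225) had 182, 127 and 165 reads in WT, 40, 51 and 64 in Atm-/-, and 156, 169 and 178 in Sirt6-/-. Atm-/- lay below all other samples, and the log2 fold change against WT was -1.74 (SE 0.24, edgeR adjusted p = 1.21e-05). WT and Sirt6-/- overlapped, with a log2 fold change of 0.03 (edgeR adjusted p = 0.869). Sirt6-/- exceeded Atm-/- by 1.76 on the log2 scale.

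Tap2 (gene ID 21355, chromosome 17, 34204479 to 34216321), which encodes the other subunit of the transporter, was lower in both mutants. It had 504, 398 and 447 reads in WT, 217, 238 and 148 in Atm-/-, and 267, 239 and 331 in Sirt6-/-. Its log2 fold change was -1.30 (SE 0.16, edgeR adjusted p = 4.01e-06) in Atm-/- and -0.74 (SE 0.13, edgeR adjusted p = 0.000148) in Sirt6-/-. The mutants lay apart from WT and almost met each other, with Sirt6-/- higher by 0.54. In the same samples the H2-K1 and H2-D1 counts were the higher ones, so that in Atm-/- heavy chain RNA was up and RNA of both transporter subunits was down.

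Tapbp (gene ID 21356, chromosome 17, 33919478 to 33929290) varied little. WT samples had 5335, 4419 and 4910 reads, Atm-/- samples 4649, 5037 and 4407, and Sirt6-/- samples 4902, 4775 and 5744, and all 3 ranges overlapped. The log2 fold change of -0.19 (SE 0.06, edgeR adjusted p = 0.012) in Atm-/- passed the test, but it was lost without WT sample 1 (adjusted p = 0.0702), Atm-/- sample 1 (adjusted p = 0.0594) or Atm-/- sample 3 (adjusted p = 0.0753). It was also lost when libraries were scaled by read totals, with a value of -0.03 (adjusted p = 0.674). In Sirt6-/- the difference from WT was 0.02 (edgeR adjusted p = 0.813).

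The immunoproteasome genes split 3 ways. Psmb8 (gene ID 16913, chromosome 17, 34198195 to 34201454), the counterpart of Psmb5, had 0, 10 and 14 reads in WT, 41, 72 and 84 in Atm-/-, and 18, 7 and 10 in Sirt6-/-. Atm-/- lay above all other samples, with a log2 fold change of 2.88 (SE 0.58, edgeR adjusted p = 0.000479) against WT. The value was 2.30 without WT sample 1 and 3.55 without WT sample 3, and passed the test in both cases. WT and Sirt6-/- overlapped (0.48, edgeR adjusted p = 0.565). Against WT in Atm-/-, Psmb8 passed the filter on low counts only through Atm-/-, where it is high.

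Psmb9 (gene ID 16912, chromosome 17, 34182030 to 34187330), the counterpart of Psmb6, was near the floor of detection and was tested in no comparison. It had 0, 0 and 2 reads in WT, 10, 10 and 8 in Atm-/-, and 13, 3 and 8 in Sirt6-/-. Against the 2 WT reads, the summed reads gave a ratio of 12.8 in Atm-/- (95% exact interval 3.23 to 111) and 11.6 in Sirt6-/- (2.87 to 101), and these intervals cover counting error only. All mutant samples had more reads than any WT sample. In Atm-/- the divergent neighbours Psmb9 and Tap1 thus went different ways, with more reads of the former and fewer of the latter than in WT.

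Psmb10 (gene ID 19171, chromosome 8, 105935728 to 105938392), the counterpart of Psmb7, was the only immunoproteasome gene with at least 391 reads in each sample. WT samples had 698, 642 and 728 reads, Atm-/- samples 725, 758 and 722, and Sirt6-/- samples 446, 391 and 473. It fell by 0.71 in Sirt6-/- (SE 0.10, edgeR adjusted p = 9.73e-06) on the log2 scale and differed by -0.04 in Atm-/- (edgeR adjusted p = 0.65; 0.12 with read totals). Sirt6-/- lay below all other samples, and below Atm-/- by 0.68.

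The constitutive subunits were higher per length by far. Psmb5, Psmb6 and Psmb7 averaged 134, 110 and 195 RPKM in WT, against 0.197, 0.0248 and 16.2 RPKM for Psmb8, Psmb9 and Psmb10. Psmb8 reached at most 1.03% of Psmb5, in Atm-/- sample 3, and Psmb9 at most 0.441% of Psmb6, in Sirt6-/- sample 1. Psmb10 was 8.39%, 7.62% and 9.02% of Psmb7 in WT, 6.55%, 6.87% and 6.74% in Atm-/-, and 6.68%, 5.68% and 7.11% in Sirt6-/-. Every mutant sample was below every WT sample. The log2 ratio differed from WT by -0.31 in Atm-/- and -0.37 in Sirt6-/-, each with p = 0.1 in a two-sided exact permutation test, the smallest p that 3 samples against 3 allow. Between the mutants the difference was -0.06 (exact permutation p = 0.8). Psmb7 itself rose by 0.27 in Atm-/- and fell by 0.35 in Sirt6-/-.

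**Figure D2:**
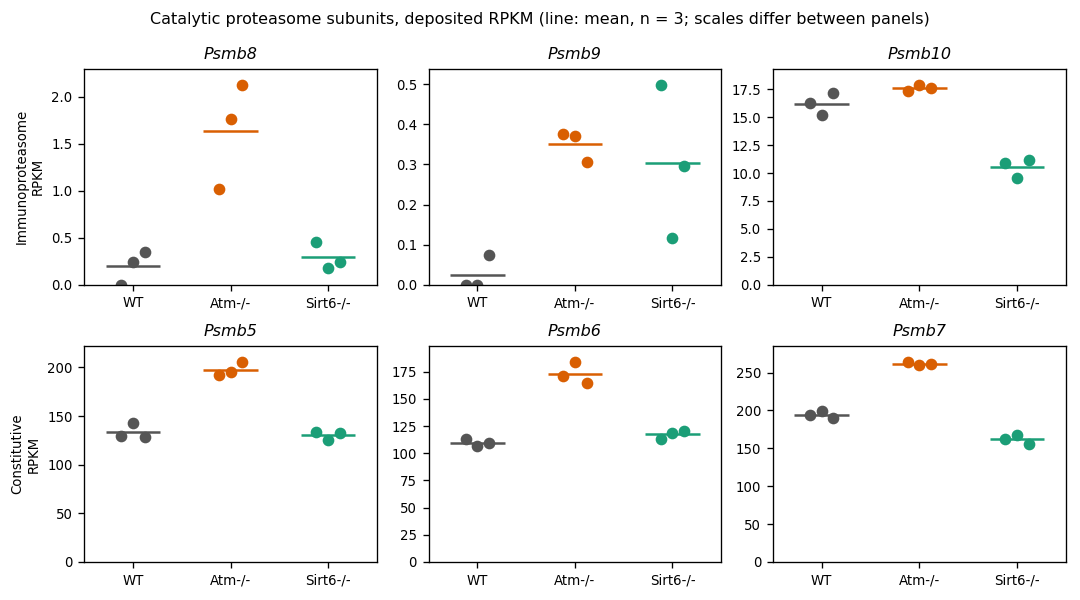
Deposited RPKM (y axes from 0, scales differ) of the immunoproteasome subunits (upper row) and their constitutive counterparts (lower row) in each sample by genotype, with the mean as a line (n = 3). Psmb8 and Psmb9 stay at or under 2.13 RPKM in all samples, and the lowest value of a constitutive subunit is 107 RPKM.

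Nlrc5 (gene ID 434341, chromosome 8, 94434335 to 94527272), which acts on class I promoters, was rare in all samples. It had 5, 8 and 4 reads in WT, 42, 39 and 28 in Atm-/-, and 74, 27 and 47 in Sirt6-/-. Both mutants lay above WT. The log2 fold change was 2.52 (SE 0.46, edgeR adjusted p = 0.000192) in Atm-/- and 3.04 (SE 0.51, edgeR adjusted p = 7.69e-05) in Sirt6-/-. The mutants overlapped (0.51, edgeR adjusted p = 0.205). Nlrc5 passed the filter against WT only through the mutants, and it overlaps the listed genes 9330175E14Rik and Mir7072. Its highest level was 0.329 RPKM, in Sirt6-/- sample 1.

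Counted over the 10 genes, Atm-/- had 4 higher than WT, 3 lower, 2 without a call and 1 untested. Sirt6-/- had 4 higher, 2 lower, 3 without a call and 1 untested. Between the mutants, 6 were higher in Sirt6-/-, 2 lower, 1 without a call and 1 untested. Most genes tested differed between these lines. Over all of them, 34.7% were higher and 33.6% lower in Atm-/- than WT, and 39.2% and 37.4% in Sirt6-/-. The counts against WT lie near these shares and do not set the pathway apart. Between the mutants, 37.8% of all genes were higher and 38% lower in Sirt6-/-. The 6 of 9 tested members higher there are a larger share, which was not tested. Psmb8 and Nlrc5 also entered some of these counts only through the genotype in which they are high. H2-K1, H2-D1 and Nlrc5 were higher and Tap2 was lower in each mutant than in the WT samples that both comparisons share. B2m and Psmb10 were called against WT in Sirt6-/- alone, and Tap1, Tapbp and Psmb8 in Atm-/- alone. For each of these 5 genes the direct comparison of the mutants also passed the test.

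**Figure D3:**
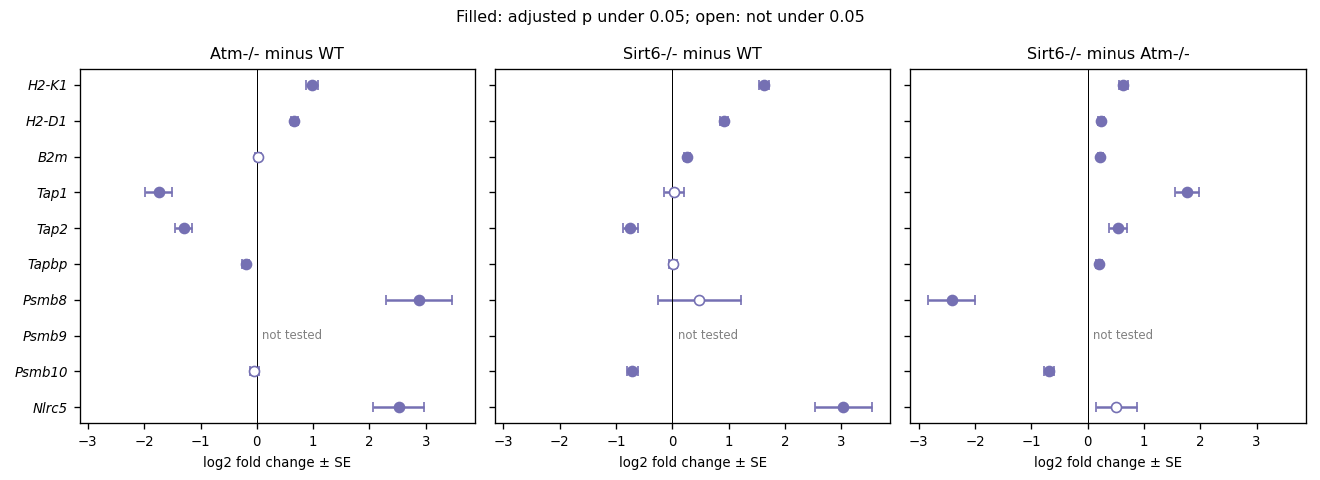
Log2 fold change with its SE (x axis) of the 10 genes (y axis) in the 3 comparisons, filled where the edgeR adjusted p was under 0.05 and open where it was not; Psmb9 was not tested. Tap1 and Tap2 lie left of 0 in Atm-/- where H2-K1 and H2-D1 lie right of it, and Psmb8 and Psmb10 are the genes left of 0 between Sirt6-/- and Atm-/-.

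Reads on class I heavy chain genes as a whole rose less than those of H2-K1 and H2-D1. The 32 H2 heavy chain genes, of which 21 had any read, summed to 5463, 4871 and 5332 reads in WT, 6436, 7122 and 6567 in Atm-/-, and 7578, 7446 and 8062 in Sirt6-/-. The sum rose by 0.23 on the log2 scale in Atm-/- (SE 0.05, edgeR adjusted p = 0.00111) and by 0.50 in Sirt6-/- (edgeR adjusted p = 3.82e-07). The make-up of the sum changed more than its size. H2-K1 took 9.87 to 11.5% of these reads in WT, 16.5 to 18.5% in Atm-/- and 21.9 to 23.8% in Sirt6-/-.

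H2-T22, a nonclassical class I gene, took 29.6 to 32.1% of the reads in WT, 9.44 to 9.93% in Atm-/- and 16.3 to 18.4% in Sirt6-/-. It fell by 1.43 in Atm-/- and by 0.32 in Sirt6-/- on the log2 scale. Its close relative H2-T10 had 121 to 157 reads in WT and 784 to 910 in Atm-/-, a log2 rise of 2.45 (SE 0.12, edgeR adjusted p = 1.78e-10). These paralogs share much sequence, so that their separate counts are uncertain. H2-L, also close in sequence to H2-D1, had 80, 96 and 86 reads in WT, 457, 463 and 490 in Atm-/- and 169, 147 and 158 in Sirt6-/-. Its log2 rise was 2.29 in Atm-/- (edgeR adjusted p = 2e-09) and 0.80 in Sirt6-/- (edgeR adjusted p = 0.00122). Mouse strains differ in which class I genes they carry, and alleles were not analysed here. H2-M3, which presents formylated peptides, fell in both mutants, by 1.43 and 2.13. H2-T23, which encodes the Qa-1 molecule, fell by 0.62 in Atm-/- and rose by 0.66 in Sirt6-/-.

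**Figure D4:**
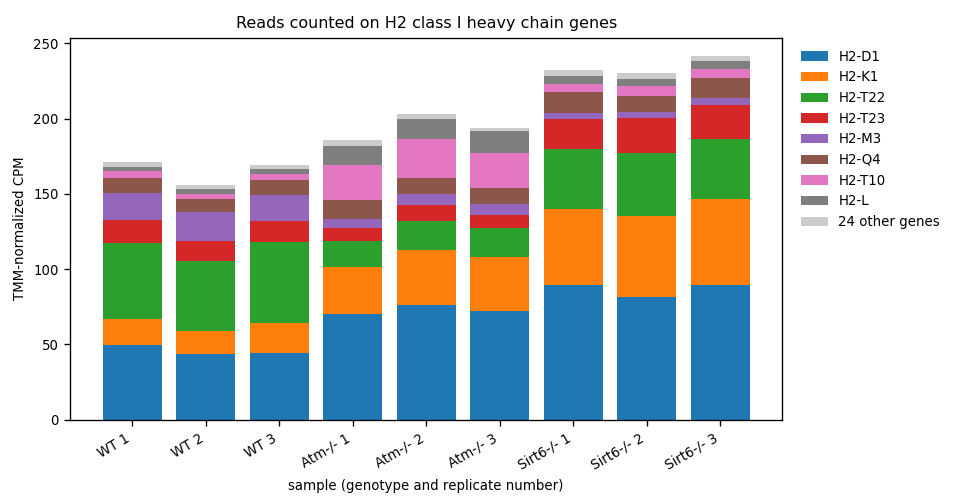
Normalised CPM (y axis, TMM scale over all 9 samples) of the H2 class I heavy chain genes stacked in each sample (x axis), with 8 genes in colour and the other 24 in pale grey. The blue and orange parts, H2-D1 and H2-K1, are larger in the 6 mutant samples than in WT, and the green H2-T22 part is smaller in Atm-/-.

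Of the 35 other class I heavy chain and class I-like genes, 13 were tested in Atm-/- against WT, of which 4 were higher, 5 lower and 4 without a call (7 higher and 5 lower with read totals). In Sirt6-/- 9 of 14 were higher and 3 lower. Over all genes the shares were 34.7% higher and 33.6% lower in Atm-/-, and 39.2% and 37.4% in Sirt6-/-. Mr1, which presents vitamin metabolites, rose by 0.56 in Atm-/- and 1.14 in Sirt6-/-. Fcgrt, which encodes the heavy chain of the neonatal Fc receptor and also pairs with B2m, had 272 to 290 reads in WT and 805, 933 and 1063 in Sirt6-/-, a log2 rise of 1.67 (SE 0.11, edgeR adjusted p = 2.31e-09). Median log2 fold changes of the tested genes were 0.29 and 0.64, beside 0.02 over all genes tested in each of these comparisons. Some genes called higher passed the filter on low counts only through the mutant, where they are high. Some called lower passed it only through WT, and both tilt these counts and medians.

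Of the 9 genes of peptide loading and the endoplasmic reticulum chaperones, Calr, Pdia3 and Hspa5 were lower in Atm-/- and higher in Sirt6-/- than WT. Erap1, Uggt1 and Bcap31 were lower and Ganab was higher in each mutant. In Atm-/- 8 of the 9 were lower, beside 33.6% of all genes tested, and 1, Ganab (a glucosidase that trims glycans of new proteins), was higher by 0.30. Tapbpl, a relative of tapasin that edits peptides, fell by 0.93, Uggt1, the sensor of misfolded glycoproteins, by 0.74, and the chaperone gene Hspa5 by 0.60. In Sirt6-/- 4 were higher and 3 lower, beside 39.2% and 37.4% of all genes tested. Calr, which encodes calreticulin of the loading complex, had 72406, 71628 and 76576 reads in Sirt6-/- against 35555 to 38589 in WT, a log2 rise of 0.93 (SE 0.04, edgeR adjusted p = 4.62e-11), and it fell by 0.45 in Atm-/-. Erap1, the aminopeptidase that trims peptides to their final length, had 1253 to 1391 reads in WT and 635, 645 and 588 in Sirt6-/-, where it fell by 1.15. Between the mutants 7 of the 9 were higher in Sirt6-/-, beside 37.8% of all genes tested. The list median was -0.35 in Atm-/- and 0.21 in Sirt6-/- against WT. With libraries scaled by read totals, 6 of the 9 were lower in Atm-/-, with a median of -0.19.

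Of the constitutive proteasome subunits and the proteasome activator, 6 of the 8 tested were higher in Atm-/- and 2 without a call, beside 34.7% higher over all genes, with Psmb6 at 0.50 (SE 0.05, edgeR adjusted p = 7.74e-07) and Psmb5 at 0.40. In Sirt6-/- 4 of 8 were lower and 4 without a call, beside 37.4% lower over all genes. Among the lower was Psme1, an activator subunit that interferon induces, which fell by 0.47. Between the mutants all 8 tested were lower in Sirt6-/-, beside 38% of all genes. Of the 8 cytosolic peptidases, which destroy or shorten peptides before transport, 2 were higher and 2 lower in Atm-/-, and 2 higher and 4 lower in Sirt6-/-, where 34.7% and 33.6% of all genes (Atm-/-) and 39.2% and 37.4% (Sirt6-/-) were called. With read totals these were 5 higher and 2 lower, and 4 higher and 3 lower. Thop1, thimet oligopeptidase, had 4419, 4485 and 4614 reads in Atm-/- against 2123 to 2322 in WT, a log2 rise of 0.88. Lap3, leucine aminopeptidase, fell by 0.68 in Sirt6-/-.

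**Figure D5:**
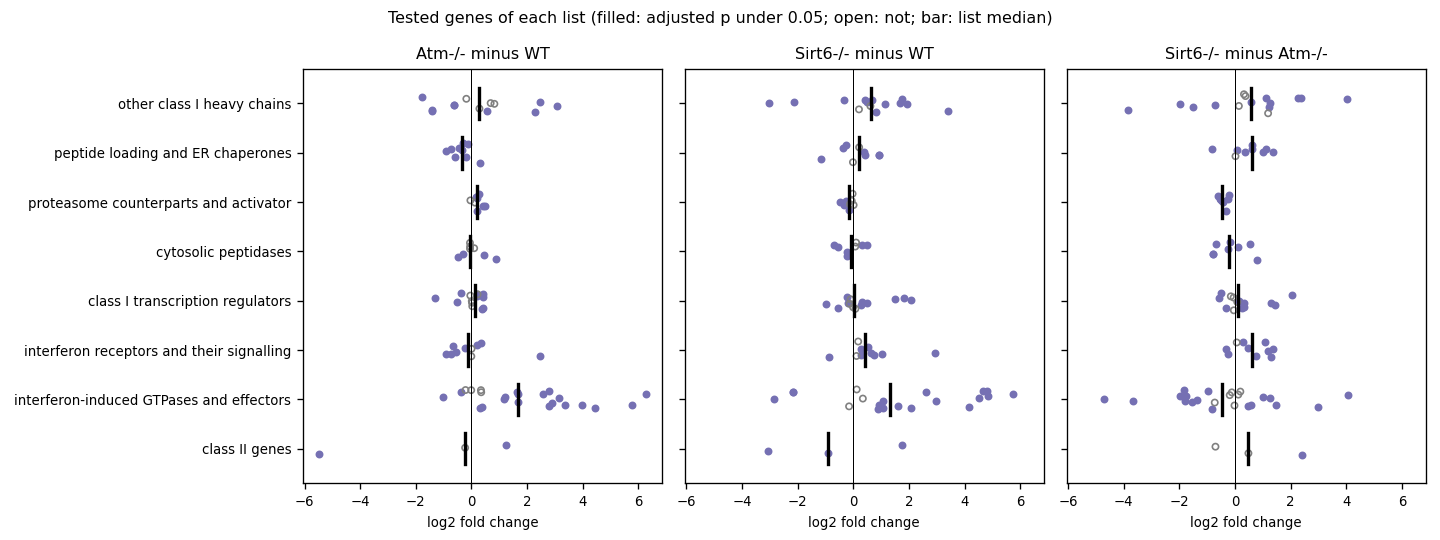
Log2 fold change (x axis) of each tested gene of 8 pathway lists (y axis) in the 3 comparisons, filled where the edgeR adjusted p was under 0.05 and open where it was not, with the list median as a bar. Chaperone genes lie mostly left of 0 in Atm-/- (median -0.35), and interferon-induced genes spread from about -1 to over 6 there with a median of 1.67.

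Of the 16 regulators of class I transcription, 14 were tested, with 6 higher and 3 lower in Atm-/- (34.7% and 33.6% of all genes) and 6 higher and 4 lower in Sirt6-/- (39.2% and 37.4%). With read totals these were 10 and 3, and 6 and 2. Nfkb1, which encodes the p50 subunit of NF-kB, had 13455, 13352 and 13413 reads in Sirt6-/- against 2955 to 3167 in WT, a log2 rise of 2.09 (SE 0.05, edgeR adjusted p = 1.18e-14). Its difference in Atm-/- was 0.01 (edgeR adjusted p = 0.843). Rfx5, which with Rfxap and Rfxank forms the RFX complex that NLRC5 binds, had 535, 336 and 496 reads in WT and 1384, 1263 and 1413 in Sirt6-/-, a rise of 1.52. Rfxap fell in both mutants, by 0.52 and 0.56.

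The interferon axis upstream of class I was not uniform. Stat2, a transducer of type I interferon signals, rose in both mutants, by 0.40 in Atm-/- and 1.83 in Sirt6-/-. Irf1 rose by 0.19 in Atm-/- (SE 0.06, edgeR adjusted p = 0.0159), and its difference in Sirt6-/- was -0.13 (edgeR adjusted p = 0.0811). The receptor genes Ifnar1 and Ifnar2 fell by 0.66 and 0.75 in Atm-/- and rose by 0.53 and 0.64 in Sirt6-/-. Of the 10 tested genes of interferon receptors and their signalling, 3 were higher and 5 lower in Atm-/- (5 and 4 with read totals). In Sirt6-/- 7 were higher and 1 lower. Over all genes the shares were 34.7% higher and 33.6% lower in Atm-/-, and 39.2% and 37.4% in Sirt6-/-. Socs1, which encodes an inhibitor of Janus kinases, rose in both, from 10, 34 and 29 reads in WT to 111, 169 and 162 in Atm-/- and 162 to 222 in Sirt6-/-.

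Among 29 interferon-induced genes, 17 of 23 tested were higher and 2 lower in Atm-/-, with a median log2 fold change of 1.67, beside 34.7% higher and a median of 0.02 over all genes. In Sirt6-/- 14 of 20 were higher and 3 lower, with a median of 1.33, beside 39.2% and 0.02. These counts and medians are tilted upward, since 6 of the 23 and 3 of the 20 had under 10 reads in every WT sample and passed the filter through the mutant alone. The 17 other genes in each comparison reached 10 reads in some WT sample, but not necessarily in all of them. Some of these may thus also have passed through the mutant alone, and the tilt can remain among them. Of the 17, 11 were higher in Atm-/- and 11 in Sirt6-/-, and 2 and 3 were lower. The genes that rose most differed in size between the mutants. Ifit1, which binds foreign RNA, had 0, 3 and 4 reads in WT, 264, 180 and 177 in Atm-/-, and 52, 37 and 87 in Sirt6-/-. Ifit3, its partner, had 27, 21 and 16 reads in WT, 68, 93 and 67 in Atm-/-, and 1157, 1208 and 1220 in Sirt6-/-. Gbp2, a guanylate-binding protein gene, had 40, 23 and 26 reads in WT and 713, 757 and 858 in Sirt6-/-, a log2 rise of 4.65 (SE 0.17, edgeR adjusted p = 3.28e-12). Bst2, the tetherin gene, fell by 0.36 in Atm-/-, a call lost with read totals, and by 2.17 in Sirt6-/-. Of 24 tested between the mutants, 7 were higher and 11 lower in Sirt6-/-, beside 37.8% and 38% of all genes tested. Some of these 11 passed the filter only through Atm-/-, where they are high, so that the count of lower genes is tilted as well.

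Class II genes, which present peptides taken up from outside the cell, were low apart from H2-DMb1 in WT. Only 3 of the 10 listed passed the filter, and they differed in direction. H2-DMa, at 0.719 CPM in WT, rose by 1.25 in Atm-/- (edgeR adjusted p = 0.0128) and 1.75 in Sirt6-/- (edgeR adjusted p = 0.0013). Cd74 differed by -0.23 in Atm-/- (edgeR adjusted p = 0.501) and -0.92 in Sirt6-/- (edgeR adjusted p = 0.0223). H2-DMb1, which edits class II peptides, had 735, 651 and 563 reads in WT, 15, 28 and 5 in Atm-/-, and 103, 92 and 48 in Sirt6-/-, and fell by 5.47 and 3.05 on the log2 scale. Ciita, the class II relative of Nlrc5, had at most 5 reads in any sample.

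By Pearson's correlation of log2(CPM + 0.5) over the 9 samples, the genes outside all lists most like B2m, of 9415 compared, were Acsf2 (r = 0.967), Apip (r = 0.959) and Mt1 (r = 0.958). Those most like Tap1 were Mark2 (r = 0.992), Ticam1 (r = 0.990) and Il17rd (r = 0.990). Among the 10 genes, H2-K1 and H2-D1 had r = 0.973 and Tap1 and Psmb8 r = -0.868. The points are 3 genotypes of 3 samples each and share their libraries, so that r mainly describes the order of the genotypes.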

How the data were processed

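RNA-Seq was performed on 9 MEF samples, 3 per genotype, from oligo(dT)-selected mRNA. For each sample the authors deposited read counts per gene, whole numbers without normalisation, and RPKM, which equal these counts over gene length and a single total of reads for each sample. Per the submitters' processing notes the genome build was mm10. The aligner, counting tool and strand setting are not given in the sources used here.

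Counts were tested with edgeR 4.0.16 in R 4.3.3, for each pair of genotypes on its 6 samples: filterByExpr, TMM normalisation, glmQLFit with a prior count of 0.125 and glmQLFTest, with Benjamini-Hochberg adjusted p under 0.05 over all genes tested. Fold changes of genes with few reads depend on the prior count. SEs were computed from the F statistic. RPKM served for levels between genes. Subunit ratios were compared with an exact permutation test. Scripts were tested on simulated data. DESeq2 1.42.0, other scalings and filters, a replicate block and left-out samples were tried as alternatives.

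The members and lists were chosen with earlier results of these data known. Named are all 10 members, Psmb5, Psmb6 and Psmb7, Atm and Sirt6, up to 3 called genes in each direction per list and comparison (largest change, mean log2 CPM of at least 1, no overlap), any gene of the regulator, interferon signalling, loading and proteasome lists, and the 3 genes (mean log2 CPM of at least 3) most like B2m and Tap1. Trp53, cell type markers, the tested class II genes, and Ciita as a regulator at the floor, complete the names. A called regulator gene that this rule names is not reported here. No sample files were left out.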

Additional observations from a re-analysis of the deposited data

How the results depend on the processing

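Of 352 recomputed values for the members other than Psmb9, 341 kept direction and side of the threshold. Of the rest, 4 lost the threshold (all Tapbp in Atm-/-), 1 passed it newly (B2m in Atm-/- with read totals) and 6 changed sign. None of these 6 was past the threshold. The 352 include fold changes of the summed H2 heavy chain genes, set against H2-K1 and H2-D1 in each comparison. Requiring at least 10 counts in every sample left 2 members higher in Atm-/- than WT and 1 lower in Sirt6-/- than Atm-/-, since Psmb8, and against WT also Nlrc5, were then not tested. With read totals Psmb10 and Psme1 changed sign in Atm-/- (0.12 and 0.13). As single samples were left out, differences past no threshold changed sign: B2m (-0.016 to 0.072) and Psme1 (-0.082 to 0.010) in Atm-/-, and Tap1 (-0.11 to 0.13), Tapbp (-0.057 to 0.065), Psmb8 (-0.11 to 1.14) and Psmb6 (-0.0194 to 0.043) in Sirt6-/-. The Psmb10/Psmb7 ratio between mutants ranged from -0.13 to 0.036, changing sign without Sirt6-/- 2. The cause was not tested. Replicate numbers did not pair the samples (correlation of same-numbered deviations -0.069 to 0.146), and a replicate block gave 4482 higher and 4351 lower genes in Atm-/- against 4611 and 4469 without it. WT 2 differed more from the other WT samples (chi-square per gene 15.1 and 16.4) than other samples of one genotype from each other (5.24 to 6.88). Depth limits Psmb8, Psmb9 and Nlrc5. With Sirt6-/- 1 left out, Nlrc5 differed between mutants by 0.091, against 0.51 with it.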
